A study of Mus musculus with 74 samples.

Results

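Immediate early genes and heat shock genes are the transcripts that cells raise within minutes of a stimulus or stress, and 34 of them were followed here across 5 sorted immune populations of mouse spleen and tumor. They are 34 of the 49480 genes of the count table: 7 AP-1 genes (Fos, Fosb, Fosl2, Jun, Junb, Jund and Atf3), 3 Egr genes (Egr1, Egr2 and Egr3), 4 Klf and Myc factors (Klf4, Klf6, Klf10 and Myc), 10 feedback regulators (Ier2, Ier3, Ier5, Dusp1, Dusp2, Btg2, Zfp36, Nfkbia, Socs3 and Gadd45b), 8 cytosolic heat shock genes (Hspa1a, Hspa1b, Hsph1, Hspa8, Hsp90aa1, Dnajb1, Dnaja1 and Hspb1) and 2 mitochondrial ones (Hspe1 and Hspd1). The members were chosen by name, and all 34 names were found in the table.

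AP-1 is a dimer of Fos and Jun family proteins that is made when kinase signals reach the serum response factor, cAMP response element and AP-1 sites of these genes, and Egr proteins are zinc-finger factors switched on by the same signals. The feedback regulators shut the response down: Dusp1 removes phosphate from MAP kinases, Zfp36 destabilises AU-rich transcripts, Nfkbia holds NF-kB in the cytosol and Socs3 blocks cytokine receptor signalling. Heat shock genes are driven by Hsf1 when unfolded protein accumulates, and Hspa1a and Hspa1b are the strictly inducible Hsp70 genes, whereas Hspa8 is the Hsp70 that cells make at all times. Both classes are widely known to be raised also by tissue digestion and cell sorting, which is why they are examined together here.

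The study profiled 1000 double-sorted cells per library with Smart-seq2, a full-length RNA-seq protocol for small inputs, from C57BL/6J mice of 3 or 12 months that carried a subcutaneous MC38 colon carcinoma for 10 days. From spleen and from tumor at both ages, 5 gates were sorted: macrophages (CD45+CD11b+F4/80+), dendritic cells (CD45+CD11b+CD11c+MHCII+), regulatory T cells (CD45+TCRb+CD4+CD25+), conventional CD4 T cells (CD45+TCRb+CD4+CD25-) and CD8 T cells (CD45+TCRb+CD8+). This gave 20 groups and 74 libraries, with 4 libraries in a group except for 3 in spleen dendritic cells of each age, in tumor dendritic cells of 12 months and in spleen conventional CD4 T cells of 3 months, and 2 in tumor conventional CD4 T cells of 3 months. All spleens came from tumor-bearing mice as far as the labels say, and the labels name no tumor-free group. Of the libraries, 4 were male, 1 in each dendritic group, and 70 were female. The titles of spleen dendritic replicates 3 and 4 at 3 months, which were followed here, differ from their age tag of 12 months. The labels do not say whether the libraries of a group came from separate animals, so p-values measure the spread between these samples, which may be technical. The labels give a 9 am harvest with little handling of the organs, but name no digestion step, so tissue and its handling cannot be told apart in any comparison of tumor with spleen.

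Total counts ran from 1652812 to 9115858 per library, with a median of 4679409.5. The sorts are named by their gates, and not every sort was led by its own markers. Spleen macrophage libraries held 4141 to 40236 CPM (counts scaled by the library total) of 8 neutrophil markers, none of them at 0, against 2904 to 4503 CPM of 8 macrophage markers. In tumor macrophages those sums were 14.2 to 820 CPM and 9539 to 16694 CPM. Tumor dendritic cell libraries held 895 to 3101 CPM of 8 dendritic cell markers and 2432 to 12023 CPM of macrophage markers, and the macrophage sum was the higher one in all of them but replicate 3 at 12 months. In spleen dendritic cell libraries the sums were 1608 to 2653 CPM and 548 to 743 CPM, and B cell markers summed to 524 to 3359 CPM. Conventional CD4 T cell libraries held 187 to 1176 CPM of 4 regulatory T cell markers (Foxp3, Il2ra, Ikzf2 and Ctla4) in spleen and 1026 to 2580 CPM in tumor, against 2949 to 5129 CPM in the regulatory T cell sort. Mitochondrial transcripts took 0.817 to 2.01% of the counts in all 32 macrophage and regulatory T cell libraries and 3.16 to 11.2% in the 42 libraries of the other 3 sorts, so comparisons between those sets of sorts and whatever sets this share cannot be told apart.

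Levels differed among the members by several orders of magnitude (the heat map of group means). Per kilobase of exon, Fos, Junb and Dusp1 led in both tissues in macrophages, at 1185, 793 and 726 CPM per kb in tumor, and also in tumor dendritic cells, at 1033, 924 and 427 CPM per kb. Nfkbia and Junb led in both tissues in conventional CD4 and CD8 T cells and in regulatory T cells. At the other end, Jund was listed at 0 in all 74 libraries. The antisense gene Gm11175, which overlaps 52.6% of the exonic length of Jund, was listed at 0 as well, and whether the counting of overlapping genes set this was not tested. Egr3 and Hspb1 were close to 0, with mean levels of 0.85 and 0.76 CPM over all libraries, so 31 members at most passed the filter on low counts in a single sort.

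**Figure D1:**
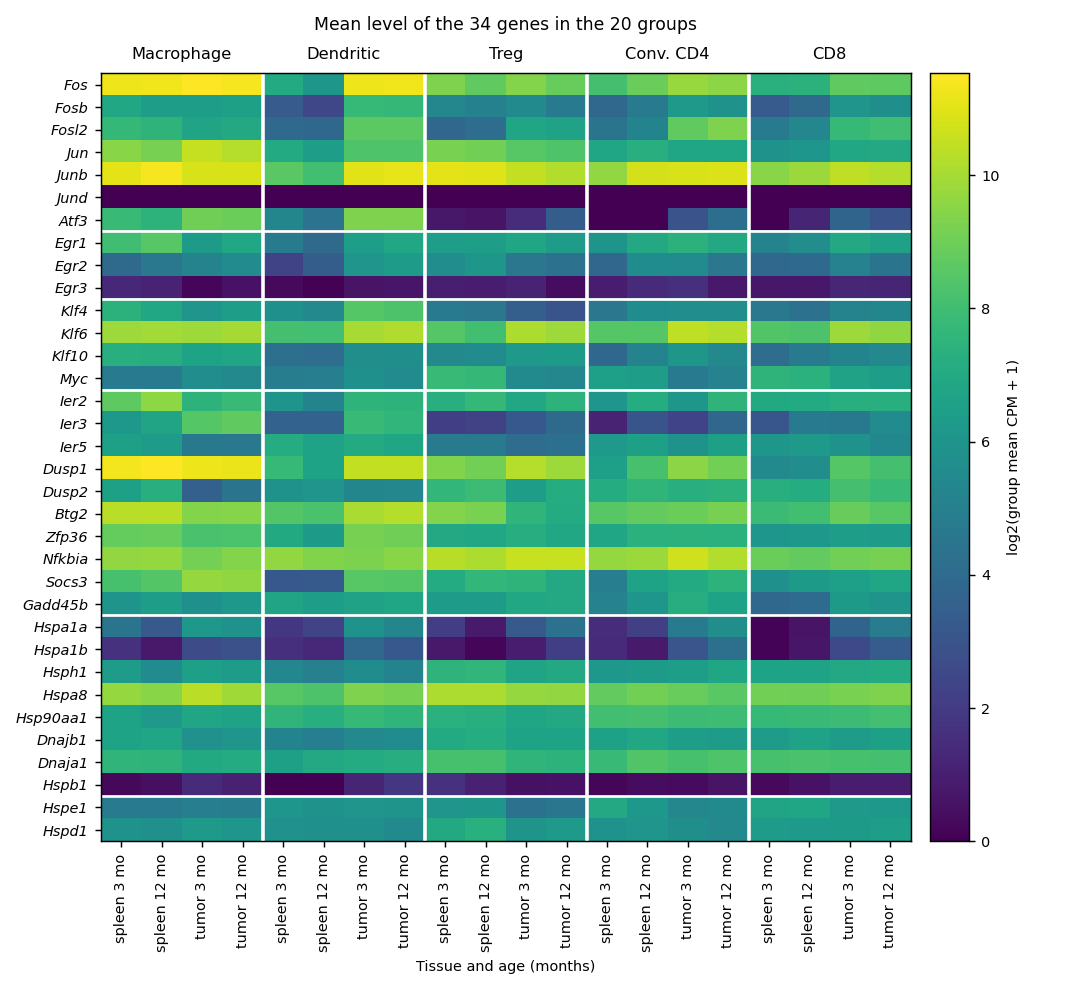
Mean level of each member (rows, ordered by class, white lines between classes and sorts) in the 20 groups (columns), as log2 of the group mean CPM plus 1. Fos, Junb and Dusp1 are bright in all 4 macrophage groups and in tumor dendritic cells, Hspa1a and Hspa1b are dark in spleen, and Jund is 0 throughout.

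Among the 5 sorts, dendritic cells had the highest count of members called between the tissues. In tumor dendritic cells, 24 of the 31 members tested were higher than in spleen and 0 were lower at an adjusted p under 0.05 (edgeR quasi-likelihood test), against 24.4% of 13981 genes higher and 22.7% lower. All 8 AP-1 and Egr members tested were higher, with a median log2 fold change of 4.40, 10 of the 14 Klf, Myc and feedback members were higher with a median of 2.23, and 6 of 9 heat shock members were higher with a median of 0.70. The median over all genes tested was -0.04.

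Fos, the partner that gives AP-1 its activity, was at 40.8, 82.1 and 191 CPM (lowest, median and highest of 6 spleen libraries) and at 1918, 2418 and 2750 CPM in the 7 tumor libraries. Every tumor library stood above every spleen library, and the log2 fold change was 5.02 (SE 0.29, adjusted p = 5.97e-08). Fosl2, a Fos family member without a transactivation domain, ran from 7.81 to 18.8 CPM in spleen, with a median of 15.3, and from 259 to 498 CPM in tumor, with a median of 381. Its log2 fold change was 5.16 (SE 0.27, adjusted p = 2.04e-08). Fosb, a close relative of Fos, rose by 5.38 (SE 0.39, adjusted p = 1.16e-06), and Atf3, a stress-induced factor of the ATF family, went from 8.98 to 59.8 CPM in spleen to 229 to 915 CPM in tumor, which is 4.85 on the log2 scale (SE 0.53, adjusted p = 5.21e-05). These 4 genes separated the tissues without overlap. Jun rose by 1.93 (SE 0.31, adjusted p = 0.000419), and its ranges of 57.0 to 185 CPM in spleen and 163 to 528 CPM in tumor overlapped. Junb, the most abundant Jun family member here, rose from a median of 275 to 1874 CPM.

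Among the regulators in dendritic cells, Socs3 showed the highest log2 fold change, 5.74 (SE 0.14, adjusted p = 1.33e-12), from 5.76 to 10.9 CPM in spleen to 308 to 430 CPM in tumor. Dusp1 rose from a median of 123 to 1400 CPM (log2 fold change 3.57, SE 0.22, adjusted p = 4.49e-08), and Ier3, an early response gene tied to cell survival, from 10.9 to 203 CPM. Neither range touched the other tissue's. Nfkbia and Ier5 were the most abundant regulators that did not pass, with log2 fold changes of 0.17 (SE 0.17, adjusted p = 0.419) and 0.38 (SE 0.22, adjusted p = 0.178). In all, 17 of the 34 members had every tumor dendritic library above every spleen library and 0 had the reverse, where 8.34% and 18.8% of 13722 genes did. The count of members called was 28 when replicate 2 of tumor dendritic cells of both ages, which hold the most macrophage marker counts, was left out. The part of macrophage RNA in the other tumor libraries was not tested.

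Most heat shock members had smaller fold changes in the same libraries. Hspa8 was at 278, 324 and 453 CPM in spleen and at 525, 590 and 739 CPM in tumor dendritic cells, without overlap (1.12 on the log2 scale, SE 0.13, adjusted p = 4.77e-06). Dnajb1, the Hsp40 partner of Hsp70, rose by 0.76 (SE 0.19, adjusted p = 0.00499), and Hsp90aa1, the inducible cytosolic Hsp90, by 0.54 (SE 0.12, adjusted p = 0.00206). The Dnajb1 call was lost without the 2 spleen libraries of conflicting age labels (0.51, adjusted p = 0.115) and when their age tags were followed (0.52, adjusted p = 0.0854). The mitochondrial chaperonin genes Hspe1 and Hspd1 had log2 fold changes of 0.32 (SE 0.14, adjusted p = 0.0841) and 0.13 (SE 0.15, adjusted p = 0.491). Hspa1a and Hspa1b, described further on, had log2 fold changes of 4.48 (SE 0.66, adjusted p = 0.000295) and 3.16 (SE 0.86, adjusted p = 0.0104). With the age tags followed, Hspa1b was at 3.60 and did not pass (adjusted p = 0.0512).

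**Figure D2:**
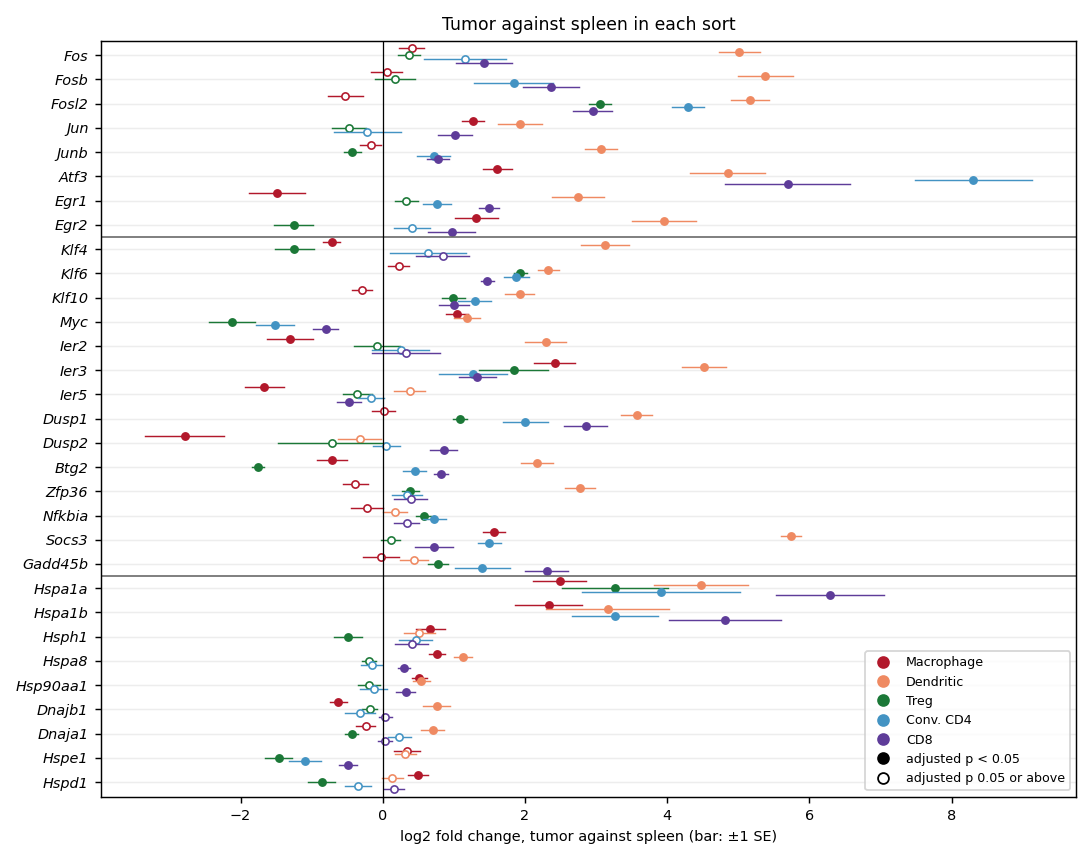
Log2 fold change of tumor against spleen (x axis, bars are ±1 SE) for the 31 members tested in at least 1 sort (lines separate the 3 classes), coloured by sort, with filled points for an adjusted p under 0.05. Dendritic cell points lie far to the right for AP-1, Egr and most regulators, macrophage and regulatory T cell points scatter around 0 there, and Hspa1a lies to the right of 0 in all 5 sorts.

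In macrophages Fos, Junb, Jun and Atf3 ranked 12th or higher of the 34 members by CPM per kb in both tissues. Of 8 AP-1 and Egr members tested there, 4 passed between the tissues. Of 31 members tested, 12 were higher and 7 were lower in tumor, against 23.9% and 27.8% of 12876 genes. The count that was lower was near the share over all genes. The medians were 0.23 for AP-1 and Egr, -0.26 for Klf, Myc and feedback and 0.52 for heat shock members, beside -0.06 over all genes. Fos ran from 1791 to 3302 CPM in the spleen macrophage sort, with a median of 2450, and from 2152 to 3715 CPM in tumor, with a median of 2655. The tissues overlapped (log2 fold change 0.40, SE 0.17, adjusted p = 0.0564). Dusp1, at medians of 2650 and 2590 CPM, differed by 0.01 on the log2 scale (SE 0.16, adjusted p = 0.947).

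Single members of the class moved in opposite directions in macrophages. Jun rose from 314 to 845 CPM in spleen to 1028 to 1806 CPM in tumor without overlap (log2 fold change 1.26, SE 0.15, adjusted p = 1.06e-06), and Atf3 from 115 to 298 CPM to 317 to 718 CPM (1.61, SE 0.21, adjusted p = 3.29e-06). Egr1 fell by 1.49 (SE 0.39, adjusted p = 0.00535), and its ranges of 112 to 667 CPM and 33.2 to 162 CPM overlapped. Among the regulators, Ier3 rose by 2.42 and Socs3 by 1.56 on the log2 scale, while Dusp2, a nuclear MAP kinase phosphatase, fell by 2.79, Ier5 by 1.67, Ier2 by 1.31, and Klf4 and the antiproliferative factor Btg2 by 0.72 each. The genes that fell did so against a spleen sort rich in neutrophil markers, whose part was not tested. Without the spleen library of the highest neutrophil sum, replicate 2 at 12 months, 20 members were called in place of 19.

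In tumor macrophages, 6 of 9 heat shock members were higher: Hspa1a, Hspa1b, Hsph1, Hspa8, Hsp90aa1 and Hspd1. Hspa8 rose from a median of 746 to 1017 CPM (log2 fold change 0.76, SE 0.12, adjusted p = 1.9e-05). Dnajb1 went the other way, from 84.2 to 131 CPM in spleen to 48.4 to 70.2 CPM in tumor, without overlap (log2 fold change -0.63, SE 0.12, adjusted p = 0.000183).

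The tissue effects of dendritic cells and macrophages were compared directly in a fit of all 74 libraries, a contrast added after the levels had been seen. Of 33 members tested, 21 had a higher log2 fold change of tumor against spleen in dendritic cells and 0 a lower one. Over all 20244 genes the shares were 11.5% and 6.97%. A higher value can also come from a fall in macrophages, as for Dusp2. The difference was 4.56 for Fos (SE 0.51, adjusted p = 5.93e-10), 5.63 for Fosl2 (SE 0.38, adjusted p = 1.45e-17), 3.19 for Junb, 3.19 for Atf3, 4.17 for Egr1, 3.51 for Dusp1 and 2.83 for Btg2. Jun did not pass (0.62, SE 0.42, adjusted p = 0.351). Of 10 heat shock members, only Dnajb1 (1.33, SE 0.22) and Dnaja1 (0.89, SE 0.19) passed. The spleen macrophage sort was rich in neutrophil markers, and most tumor dendritic libraries held more macrophage than dendritic cell markers. Mitochondrial shares also differed between these sorts. What part these features had in the result was not tested. For Fos the gap in level lay in spleen. Every spleen macrophage library was at 1791 CPM or more and every spleen dendritic library at 191 CPM or less, while the tumor ranges of both sorts overlapped. Fosl2 differed between the sorts in both tissues, in opposite directions. Its mean was 1.43 CPM per kb in dendritic cells and 19.7 in macrophages of spleen, and 40.8 and 11.8 in tumor.

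In CD8 T cells, too, most members called were higher in tumor. In tumor CD8 T cells, 20 of 31 members were higher and 3 were lower, against 22.5% and 19.6% of 13285 genes. All 8 AP-1 and Egr members tested were higher, with a median of 1.46, beside 0.83 for Klf, Myc and feedback, 0.29 for heat shock and -0.01 for all genes. Fos was at 37.9, 165 and 305 CPM in 8 spleen libraries and at 177, 430 and 553 CPM in 8 tumor libraries. These ranges overlapped, and the log2 fold change was 1.43 (SE 0.39, adjusted p = 0.0104).

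Fosl2, in contrast, separated the tissues in CD8 T cells, from 20.8 to 49.8 CPM in spleen and from 133 to 455 CPM in tumor (log2 fold change 2.95, SE 0.27, adjusted p = 5.36e-07), and so did Dusp1, from 22.7 to 57.7 CPM and from 93.8 to 457 CPM (2.85, SE 0.30, adjusted p = 3.07e-06). Atf3 was at 0 in 5 of 8 spleen libraries and at 3.51 to 19.2 CPM in tumor, so in this sort, too, it passed the filter only through the tumor libraries. Egr1 rose from a median of 41.4 to 116 CPM (adjusted p = 9.06e-09). Myc, the growth factor-induced regulator of biosynthesis, fell by 0.80 (SE 0.18, adjusted p = 0.00115), from 141 to 193 CPM to 50.4 to 134 CPM, without overlap. Hspe1 and Ier5 were the other members that were lower, the Ier5 call being lost in 9 of 21 alternatives. Of 9 heat shock members, 4 rose: Hspa1a, Hspa1b, Hspa8 by 0.29 (SE 0.09, adjusted p = 0.00766) and Hsp90aa1 by 0.32 (SE 0.13, adjusted p = 0.0486). The Hsp90aa1 call was lost in 12 of 21 alternatives, the replicate block among them (adjusted p = 0.0668).

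In conventional CD4 T cells, 15 of 31 members tested were higher and 2 were lower in tumor, against 16% and 11.2% of 14661 genes, with medians of 0.96 for AP-1 and Egr, 0.68 for Klf, Myc and feedback and -0.13 for heat shock members, beside 0.04 for all genes. Fos spread from 46.3 to 945 CPM over the 7 spleen libraries and from 561 to 945 CPM over the 6 tumor libraries, and the difference did not pass (1.15, SE 0.58, adjusted p = 0.177). Fosl2 separated the tissues, at a median of 26.6 and at most 46.1 CPM in spleen and 385 to 896 CPM in tumor (4.3 on the log2 scale, SE 0.23, adjusted p = 4.33e-13). Klf6, a zinc-finger factor, did so as well, from 225 to 482 CPM to 957 to 1415 CPM (1.88, SE 0.17, adjusted p = 3.03e-09). The regulatory T cell markers of this sort were also more abundant in tumor, with sums of 1771 against 855 CPM at the median, and their part in these differences was not tested.

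Atf3 was at 0 in all 7 spleen libraries of conventional CD4 T cells and at 6.05 to 29.1 CPM in all 6 tumor libraries, at least 111-fold higher when spleen is set at 3 counts over the group. It passed the filter only through the tumor libraries. Myc fell by 1.52 (SE 0.27, adjusted p = 0.000144) and Hspe1 by 1.09 (SE 0.22, adjusted p = 0.000499). The count of members called was 10 without spleen replicates 1 and 4 at 3 months, in which ribosomal protein transcripts took 8.85% and 12.0% of the counts, and 11 without tumor replicate 1 at 3 months. The calls lost without the ribosomal-rich libraries were Fosb, Junb, Btg2, Dusp1, Ier3, Hspa1a and Hspe1, and those lost without the tumor library were Fosb, Junb, Egr1, Btg2, Ier3 and Gadd45b.

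Members called in regulatory T cells went both ways. Of 29 members tested, 9 were higher and 9 were lower in tumor, against 25.9% and 27.6% of 13345 genes. Both counts were near the shares over all genes. The medians were 0.17 for AP-1 and Egr, 0.25 for Klf, Myc and feedback and -0.32 for heat shock members, beside -0.05 for all genes. Fos ranged from 269 to 731 CPM in spleen and from 355 to 766 CPM in tumor (0.37, SE 0.16, adjusted p = 0.0593). Fosl2, Klf6 and Dusp1 were higher in tumor without overlap, by 3.06, 1.94 and 1.09 on the log2 scale. Btg2 fell by 1.76 (SE 0.09, adjusted p = 1.36e-12), from 548 to 720 CPM to 121 to 205 CPM, and Myc by 2.13 (SE 0.32, adjusted p = 4.48e-05), from 192 to 258 CPM to 21.8 to 97.3 CPM, both without overlap. Egr2, Klf4, Junb, Hsph1, Dnaja1, Hspe1 and Hspd1 were lower too. The Hsph1 call was lost in 10 of 20 alternatives. The mitochondrial pair showed the largest falls among the heat shock members, 1.47 for Hspe1 and 0.86 for Hspd1.

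Regulatory and CD8 T cells were also compared directly, a contrast added after the levels were seen. The log2 fold change of tumor against spleen was lower in regulatory T cells for 12 members and higher for 1. Over all 20244 genes the shares were 5.35% and 5.2%. A lower value can be a smaller rise, a larger fall or an opposite change. Myc, among these members, fell in both sorts, and further in regulatory T cells. Btg2 differed by -2.51 (SE 0.23, adjusted p = 2.89e-13), Dusp1 by -1.71, Jun by -1.43 and Junb by -1.15. Fos did not pass (-1.01, SE 0.46, adjusted p = 0.171). The count was 8 without replicate 3 of every group. Here, too, the sorts differ in mitochondrial share, and the part of that in the result was not tested.

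Hspa1a was the heat shock member that moved in every sort. It was higher in tumor in all 5 sorts, as was Ier3 alone among the other members, and Hspa1b was higher in the 4 sorts in which it was tested. In conventional CD4 T cells the Ier3 call was lost in 13 of 18 alternatives, among them no filter (adjusted p = 0.0931) and the replicate block (adjusted p = 0.184), and the Hspa1a call in 6 of 18. In CD8 T cells Hspa1a was at 0 to 0.939 CPM in spleen, with a median of 0.239, and at 2.27 to 62.2 CPM in tumor, with a median of 17.8 (log2 fold change 6.29, SE 0.76, adjusted p = 3.53e-06). Hspa1a and Hspa1b held 13 and 11 counts over all spleen libraries of that sort, and passed its filter only through the tumor libraries. In spleen conventional CD4 T cells they held 74 and 32 counts, and in spleen regulatory T cells 68 and 14. Hspa1b, at 87 counts in tumor regulatory T cells, was not tested in that sort. In these sorts, too, whether the genes were tested depended largely on the tumor libraries. In macrophages Hspa1a went from 6.38 to 51.6 CPM to 37.0 to 115 CPM (2.48, SE 0.38, adjusted p = 4.05e-05), and the ranges overlapped through 1 spleen library at 51.6 CPM. In regulatory T cells the tumor libraries spread from 0.244 to 32.4 CPM around a median of 12.8, against 0 to 7.43 CPM in spleen (3.27, SE 0.74, adjusted p = 0.00139). In conventional CD4 T cells they spread from 1.73 to 102 CPM, against 0 to 11.8 CPM (3.91, SE 1.11, adjusted p = 0.028). Its difference between the tissue effects of myeloid and T cell sorts did not pass (-0.99, SE 0.72, adjusted p = 0.327).

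Hspa1a and Hspa1b lie side by side on chromosome 17 and can hardly be told apart by sequence. Their coding sequences were 99.4% identical by position, with an unbroken identical run of 638 bases, so how the reads were divided between them is uncertain. The 250 bases before their start sites, from RefSeq on GRCm38.p6 (chr17:34972157-34972406 and chr17:34959239-34959488, minus strand), differed at 3 positions, and are shown because both genes moved together. Capitals mark a heat shock element of 2 units (GAANNTTC or TTCNNGAA, searched on both strands).
Hspa1a: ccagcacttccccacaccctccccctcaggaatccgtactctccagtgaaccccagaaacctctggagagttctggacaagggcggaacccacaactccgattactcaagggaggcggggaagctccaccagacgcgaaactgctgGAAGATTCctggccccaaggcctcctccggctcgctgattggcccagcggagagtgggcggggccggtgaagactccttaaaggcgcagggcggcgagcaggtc
Hspa1b: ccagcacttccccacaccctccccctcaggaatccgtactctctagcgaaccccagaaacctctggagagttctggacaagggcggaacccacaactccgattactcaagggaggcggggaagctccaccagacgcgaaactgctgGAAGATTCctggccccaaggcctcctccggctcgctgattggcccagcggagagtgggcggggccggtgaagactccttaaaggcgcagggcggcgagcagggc
RefSeq windows, of 250 bases before and 50 after a start, were at hand for 27 members. Egr1, Egr3, Klf10, Myc, Ier2, Hspa8 and Hsp90aa1 had none. The 2-unit element was in 7 of 8 heat shock members with a window (in all but Dnajb1), in 3 of 8 AP-1 and Egr members (Egr2, Fosl2 and Jun) and in 0 of 11 Klf, Myc and feedback members, where 15.1% of all 32851 windows held it. The 3-unit element, overlapping pairs of the 2-unit form, was in Hsph1 and in the window that Hspe1 and Hspd1 share from opposite strands, against 0.603% of all windows. Neither Hspe1 nor Hspd1 was called higher in a T cell sort, while Hspa1a was in all 3. The search took exact units only, so imperfect units were not counted. Whether these elements bear on the tissue differences was not tested.

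Short stretches around matches in other members are shown for comparison, because these genes did not all answer the tissue contrast alike in every sort. Capitals mark the 3-unit heat shock element in Hspe1 (chr1:55088056-55088085, plus strand), the cAMP response element TGACGTCA in Dusp1 (chr17:26508597-26508626, minus strand) and Btg2 (chr1:134079303-134079332, minus strand), and the CArG box, the site of serum response factor, in Egr2 (chr10:67537787-67537816, plus strand) and Zfp36 (chr7:28379267-28379296, minus strand).
Hspe1: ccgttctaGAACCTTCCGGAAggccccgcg
Dusp1: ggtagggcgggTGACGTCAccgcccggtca
Btg2: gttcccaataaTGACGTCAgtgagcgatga
Egr2: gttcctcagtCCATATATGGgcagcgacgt
Zfp36: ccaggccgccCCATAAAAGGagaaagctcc
Dusp1 and Btg2 were the 2 of 27 members with that cAMP response element (1.79% of all windows). Both were called higher in tumor in dendritic cells, CD8 and conventional CD4 T cells, the Btg2 call in the last being lost in 10 of 18 alternatives. They moved in opposite directions in tumor regulatory T cells, 1.09 and -1.76, and in macrophages Btg2 fell while Dusp1 did not pass. The CArG box was in Egr2 and Zfp36 (1.63% of all windows), and the AP-1 site TGACTCA in 0 of 27 (5.20% of all windows). Sequence outside the windows, and members without a window, were not searched, so a member without a match here may still have such sites.

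**Figure D3:**
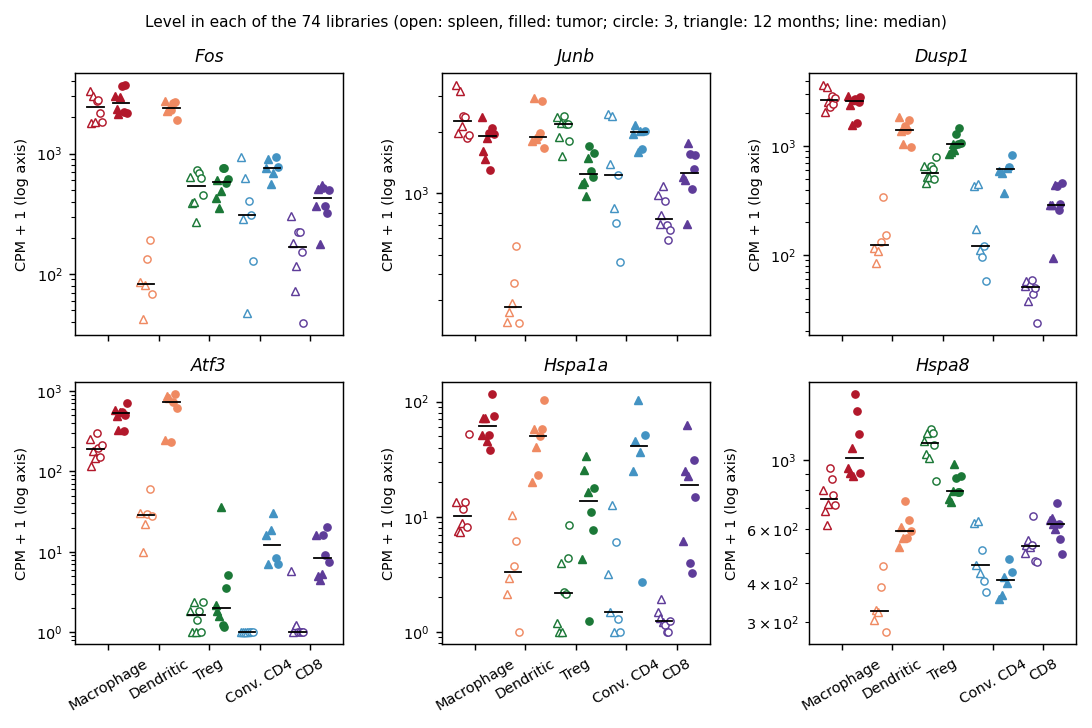
CPM plus 1 on a log axis for 6 members in each of the 74 libraries, by sort and tissue (open points spleen, filled points tumor, circles 3 months, triangles 12 months, lines the median). Fos, Junb and Dusp1 are low in spleen dendritic cells and high in macrophages of both tissues, while Hspa1a is low in spleen in every sort.

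Over the 5 sorts weighted equally, 24 of 33 members were higher in tumor and 4 were lower (Myc, Ier5, Dusp2 and Hspe1). Over all 20244 genes the shares were 21.9% and 24.8%. The Dusp2 call was lost in 4 of 8 alternatives. The AP-1 and Egr class counted 8 higher of 9 tested with a median of 1.08, and the heat shock class 6 higher and 1 lower of 10 with a median of 0.26, beside -0.03 for all genes. Atf3 (4.71, SE 0.44), Fosl2 (2.99, SE 0.12) and Fosb (1.96, SE 0.18) led the first class, and Hspa1a (4.08, SE 0.36) and Hspa1b (3.24, SE 0.35) the second. Without Hspa1a, Hspa1b and the barely detected Hspb1, the heat shock members lay between -0.48 and 0.37 on this scale. The fitted values of Atf3, Hspa1a and Hspa1b depend on the prior count of the fit, because some spleen libraries were at 0. Across the separate sorts, 12 of the 34 members were called higher in at least 1 sort and lower in another, 7 were higher in 4 sorts and lower in none, and Ier5 and Hspe1 were lower in at least 1 and higher in none. The shares of all genes with these patterns were not counted, so these numbers cannot be read as a trait of the members.

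The log2 fold change of tumor against spleen was higher in myeloid than in T cell sorts for 17 members and lower for 5. Over all genes the shares were 15.2% and 20.7%, with a median of -0.25. A higher value can also come from a fall in T cells, as for Hspe1, which was called in neither myeloid sort. Socs3 (2.90, SE 0.19), Myc (2.62, SE 0.24) and Egr2 (2.61, SE 0.34) showed the largest positive differences among members above 10 CPM, and Dusp2 the largest negative one among the members called (-1.62, SE 0.48). Myc rose in both myeloid sorts, by 1.04 and 1.19, and fell in all 3 T cell sorts. In level, 20 members were higher in myeloid than in T cell sorts and 7 were lower, against 26.6% and 31.2% of genes. Atf3 (7.88, SE 0.37), Ier3 (3.71, SE 0.19), Klf4 (2.45, SE 0.17) and Dusp1 (2.14, SE 0.11) were higher in myeloid sorts. Hsph1, Hsp90aa1, Dnajb1 and Dnaja1 were lower there, by 0.76, 0.33, 0.54 and 0.68 on the log2 scale.

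Age moved few members. In spleen, 12 against 3 months called 4 of 28 members in conventional CD4 T cells, where 3.92% of 11726 genes were called in either direction, and 1 of 28 in CD8 T cells (1.02% of 11677 genes). In spleen conventional CD4 T cells, Egr2 was at 55.2, 42.1, 48.6 and 42.4 CPM at 12 months and at 18.7, 9.15 and 11.8 CPM at 3 months. The groups did not overlap, and the log2 fold change was 1.65 (SE 0.31, adjusted p = 0.00746). Socs3 was at 111, 82.2, 133 and 83.3 CPM against 26.2, 37.5 and 24.4 CPM (1.64, SE 0.25, adjusted p = 0.00127). Klf10, a TGF-beta-induced factor, rose by 1.11 (SE 0.30, adjusted p = 0.0479), and Hspe1 fell by 1.04 (SE 0.27, adjusted p = 0.037), its highest values being in the 3-month libraries rich in ribosomal transcripts. The calls of Klf10 and Hspe1 were each lost in 8 of 13 alternatives, the replicate block and leaving out any single 12-month library among them. Without the 2 ribosomal-rich libraries 2 members were called. The 4 regulatory T cell markers summed to 855, 1176, 1022 and 1044 CPM in these 12-month libraries and to 187, 591 and 228 CPM in the 3-month ones, without overlap. In the spleen regulatory T cell sort Egr2 was at 33.4 to 96.5 CPM and Socs3 at 125 to 230 CPM, and the part of such cells in the age result was not tested. In spleen CD8 T cells, Ier3 was at 32.1, 15.5, 26.4 and 33.8 CPM at 12 months and at 10.4, 6.70, 5.65 and 7.58 CPM at 3 months (1.84, SE 0.29, adjusted p = 0.00101).

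The other age comparisons called 0 members by edgeR. In spleen these were dendritic cells (0.593% of 12650 genes called), macrophages (0% of 12131) and regulatory T cells (0.0489% of 12261), with 4, 6 and 4 members whose unadjusted p was under 0.05. DESeq2 gave 0, 1 and 0. In tumor they were conventional CD4 T cells (0.0311% of 12882), dendritic cells (0% of 12090), macrophages (0% of 11007), CD8 T cells (0% of 11804) and regulatory T cells (0% of 11698), with 9, 0, 2, 1 and 6 members whose unadjusted p was under 0.05. DESeq2 gave 0 in each.

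The age effect differed between tissues for 1 member of 31 in conventional CD4 T cells (0.668% of 14661 genes called): Egr2, at -2.75 (SE 0.51, adjusted p = 0.00523), was higher at 12 months in spleen, while in tumor it was at 17.3, 41.1, 23.6 and 9.86 CPM at 12 months and at 49.3 and 43.6 CPM at 3 months. Without the 3-month tumor replicate 1, this call was lost. No member passed in CD8 T cells (0.143% of 13285), dendritic cells (0% of 13981), macrophages (0% of 12876) or regulatory T cells (0% of 13345), where 3, 1, 1 and 2 members had an unadjusted edgeR p under 0.05 and DESeq2 gave 0 in each.

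Immediate early and heat shock members differed in how they varied between libraries of one group. Among 9377 genes of at least 10 CPM, the within-group SD of log2(CPM + 1) had a median percentile of 92.7 over 8 AP-1 and Egr members, 73.5 over 14 Klf, Myc and feedback members and 40.4 over 8 heat shock members. Fos stood at the 95.5th percentile, Hspa1a at the 99.8th and Hspa8 at the 5.28th. Deviations from the group mean were then compared for 8 pairs of members over 74 libraries, by a permutation test within groups adjusted over the pairs. Fos and Dusp1 deviated together (r = 0.74, rho = 0.63, adjusted permutation p = 2.67e-05 for both, the smallest the permutations gave), as did Fos and Jun (r = 0.69, rho = 0.54, adjusted permutation p = 8e-05 and 0.00016) and Fos and Egr1 (r = 0.47, rho = 0.62, adjusted permutation p = 2.67e-05 for both). Without the 2 libraries farthest from the median, r was 0.66, 0.48 and 0.55. Within sorts, r for Fos and Jun ran from 0.35 in regulatory T cells to 0.92 in conventional CD4 T cells, and for Fos and Dusp1 from -0.05 to 0.89 in the same sorts.

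Hspa1a and Hspa1b deviated together (r = 0.80, rho = 0.82, adjusted permutation p = 2.67e-05 for both, and r = 0.87 without the 2 farthest libraries). They share sequence, so reads may be divided between them. Of the other heat shock genes, Hspa1a was compared with Dnajb1 and Hsph1, and neither relation passed the test: r was 0.26 with Dnajb1 (rho = 0.28, adjusted permutation p = 0.11 and 0.0589) and 0.14 with Hsph1 (rho = 0.05, adjusted permutation p = 0.341 and 0.786). Within sorts, r ran from -0.40 in dendritic cells to 0.74 in conventional CD4 T cells for Dnajb1, and from -0.44 in macrophages to 0.59 in conventional CD4 T cells for Hsph1. Fos and Hspa1a had r = 0.12 and rho = 0.04 (adjusted permutation p = 0.46 and 0.786), and r = 0.01 without the 2 farthest libraries. Jun and Dnajb1 had r = 0.35 and rho = 0.38 (adjusted permutation p = 0.0985 and 0.0138).

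**Figure D4:**
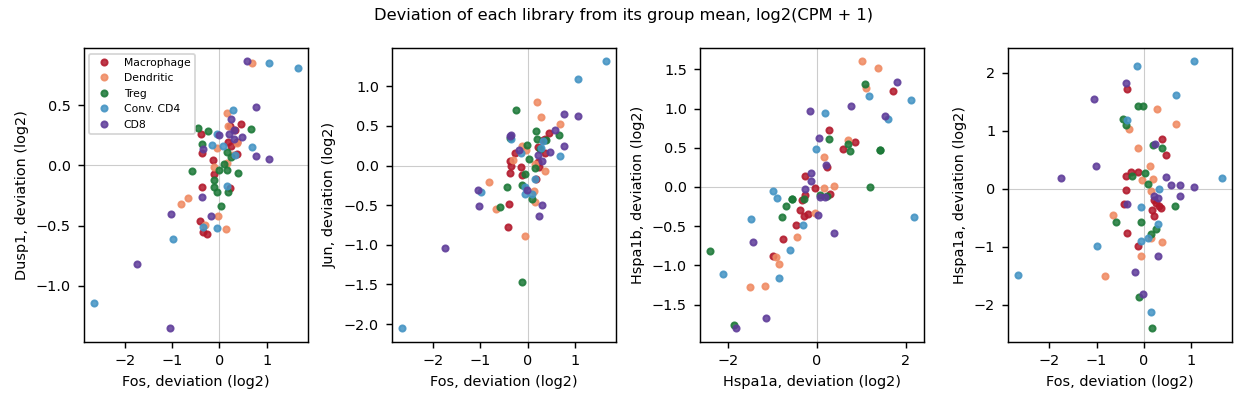
Deviation of each of the 74 libraries from its group mean, in log2(CPM + 1), for 4 pairs of members, coloured by sort. Fos and Dusp1 (r = 0.74), Fos and Jun (r = 0.69) and Hspa1a and Hspa1b (r = 0.80) lie along a diagonal, and Fos and Hspa1a (r = 0.12) do not.

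The class scores, the mean of log2(CPM + 1) over the 10 genes of a class, put these patterns on one scale. The median AP-1 and Egr score rose from 4.03 in spleen to 7.07 in tumor dendritic cells, from 4.10 to 5.54 in CD8 T cells and from 4.68 to 5.88 in conventional CD4 T cells, and was 6.74 and 6.65 in macrophages and 5.22 and 5.23 in regulatory T cells. The heat shock score went from 4.76 to 5.51 in dendritic cells, from 5.11 to 5.65 in macrophages and from 5.21 to 5.92 in CD8 T cells, and from 5.67 to 5.36 in regulatory T cells. In conventional CD4 T cells it went from 5.07 to 5.81, whereas the median log2 fold change of the heat shock members tested there had the opposite sign (-0.13). Each gene weighs equally in the score, also where its level is low. Medians went from 0.501 to 39.9 CPM for Hspa1a and from 0.501 to 11.4 CPM for Hspa1b in that sort. In CD8 T cells they went from 0.239 to 17.8 CPM and from 0.159 to 8.28 CPM. The score without these genes was not tested, so its rise cannot be read as a rise of the whole class. The pooled within-group SDs were 0.35 for the AP-1 and Egr score and 0.31 for the heat shock score. In bulk samples a change in the share of cells that express a gene and a change in RNA per cell cannot be told apart.

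**Figure D5:**
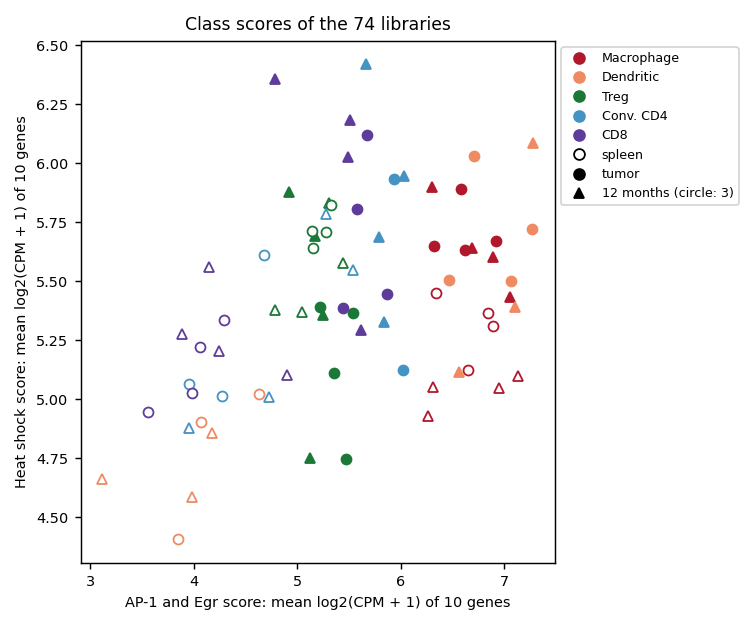
AP-1 and Egr score (x axis) against heat shock score (y axis) of the 74 libraries, both as mean log2(CPM + 1) over 10 genes (open points spleen, filled points tumor, triangles 12 months). Spleen dendritic cells lie at the left, at AP-1 and Egr scores of 3.12 to 4.63, and tumor dendritic cells at the right, at 6.46 to 7.28, while macrophages of both tissues share one range.

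Other genes of the same programmes were counted from separate lists. Of 30 further immediate early genes, 22 of 28 tested rose and 0 fell in tumor dendritic cells, led by Sgk1, a serum-induced kinase (4.70, SE 0.28, adjusted p = 6.67e-08), Zfp36l2 and Per1, with a list median of 1.99. Over all genes tested, 24.4% were higher and 22.7% lower in that sort. In macrophages 7 rose and 12 fell of 28, beside 23.9% and 27.8% of all genes, so the count that rose was near the share over all genes, with Sgk1 at 1.39 and Klf2 at -3.30. In CD8 T cells 17 rose and 2 fell of 26, led by Dusp5 (3.78), Gem (3.75) and Nr4a2 (4.95), beside 22.5% and 19.6% of all genes. In conventional CD4 T cells 14 rose and 1 fell of 25 (16% and 11.2% of all genes), and in regulatory T cells 13 rose and 10 fell of 24 (25.9% and 27.6% of all genes). Of 32 further heat shock and co-chaperone genes, 17 of 30 rose and 2 fell in dendritic cells and 16 rose and 1 fell of 30 in macrophages. In regulatory T cells 5 rose and 11 fell of 28, led by Trap1 (-0.93), Fkbp4 (-1.11) and Dnajc7 (-0.63), and in CD8 T cells 9 rose and 6 fell of 28, near the shares over all genes. The metal-binding stress genes Mt1 and Mt2 rose in all 5 sorts, by 3.33 to 5.63 and by 5.45 to 7.10 on the log2 scale. Hsf1, the factor that drives heat shock genes, had log2 fold changes of 0.04 in macrophages and close to 0 in dendritic cells, neither of which passed, and fell in the 3 T cell sorts by 0.53 to 1.19.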

How the data were processed

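RNA of 74 libraries was sequenced by the submitters with Smart-seq2. The deposited table holds raw read counts per gene, made by the authors with STAR 2.5.3 and featureCounts on mm10, per the submitters' processing notes. For the annotation release, the strand setting and multi-mapping, the sources used here give nothing. Gene positions and exon overlaps come from GENCODE on GRCm38. The members and gene lists were chosen with earlier results of these data known.

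For tissue and for age by tissue, each sort was fitted over its 4 groups. For age within a tissue, the spleen or the tumor libraries of a sort were filtered and fitted alone. Comparisons across sorts came from a 20-group fit of all 74 libraries. All fits used edgeR 4.0.16 (R 4.3.3): filterByExpr, TMM, quasi-likelihood test, Benjamini-Hochberg adjustment over all genes tested, threshold 0.05. Levels are CPM over the library total, and log scales use a pseudocount of 1 CPM. The alternatives were DESeq2 1.42.0, no filter, a replicate block and leaving out libraries. Of 180 pairs of member and group checked for outlying libraries, groups of 3 or fewer were left out.

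Named members were, per comparison and class, up to 4 past the threshold with the largest change and a mean of 10 CPM or more where they were higher, plus up to 2 of the most abundant that did not pass. Other genes were named by smallest adjusted p. On simulated CD8 counts for 13285 genes, 86% of changes of 1 on the log2 scale and 100% of changes of 2 were recovered, with 8 false calls. Numbers were taken to pair libraries where every same-numbered pair correlated above 0.1, which held only between the ages of tumor regulatory T cells (0.195 to 0.503), where the block also called 0 members. Replicate numbers are separate in each sort, so the level of myeloid against T cell sorts has no blocked value. Total counts of 1652812 to 9115858 limit precision for members of a few CPM, and a floor of 3 counts over the group was set for groups at 0, for counting error only.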

Additional observations from a re-analysis of the deposited data

Results flagged for a closer look

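In 12 of 180 pairs of member and group checked, 1 library stood apart from the rest of its group, where chance gives about 1 in 20. In tumor macrophages these were Junb in 3-month replicate 2, low at 1299 CPM, and Fosl2, low at 87.2 CPM in 12-month replicate 3 and high at 173 CPM in 3-month replicate 4. Atf3 was high in CD8 replicate 1 at 12 months in spleen (4.75 CPM) and in tumor (15.2 CPM), and in tumor regulatory T cell replicate 4 at 12 months (35.2 CPM). That regulatory T cell library also held high Myc (81.0 CPM), as did replicate 4 at 3 months (97.3 CPM). Myc was high in spleen regulatory T cell replicate 3 at 12 months (232 CPM) and in tumor dendritic replicate 3 at 3 months (71.3 CPM). Hspa1a was high in the spleen macrophage sort, replicate 4 at 3 months (51.6 CPM), and in spleen regulatory T cell replicate 3 at 12 months (2.98 CPM).

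The age effect on Egr2 differed between tissues in conventional CD4 T cells, by -2.75 on the log2 scale. Tissue effects differed between myeloid and T cell sorts, on the log2 scale and tested by edgeR, for Fos (1.76), Fosb (1.29), Fosl2 (-1.09), Jun (1.52), Junb (1.12), Egr2 (2.61), Klf4 (1.15), Klf6 (-0.46), Myc (2.62), Ier3 (2.04), Dusp2 (-1.62), Btg2 (0.92), Zfp36 (0.85), Nfkbia (-0.55), Socs3 (2.90) and Gadd45b (-1.26). Among heat shock members they differed for Hspa8 (0.99), Hsp90aa1 (0.56), Dnaja1 (0.32), Hspb1 (4.17), Hspe1 (1.37) and Hspd1 (0.70). The Dnaja1 call was lost in 6 of 8 alternatives. The contrasts added later were listed here only for the 12 members checked for outlying libraries, and further members passed in both. Among those 12, tissue effects differed between dendritic cells and macrophages for Fos (4.56), Fosl2 (5.63), Junb (3.19), Atf3 (3.19), Egr1 (4.17), Dusp1 (3.51) and Btg2 (2.83). Between regulatory and CD8 T cells they differed for Jun (-1.43), Junb (-1.15), Myc (-1.27), Dusp1 (-1.71), Btg2 (-2.51), Hspa8 (-0.43) and Hspe1 (-0.92). The Hspa8 call was lost in 4 of 8 alternatives.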

How the results depend on the processing

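Of 218 member calls, 172 kept their direction and their side of the threshold under every alternative run and 46 were lost under at least 1. Without the filter on low counts, the age comparisons in spleen called 1 member in macrophages, 2 in dendritic cells and 8 in conventional CD4 T cells, and 1 in tumor conventional CD4 T cells. The age by tissue term then called 1 in regulatory T cells, 4 in conventional CD4 T cells and 1 in CD8 T cells, and the AP-1 and Egr median in dendritic cells was 3.95. DESeq2 called 1 in spleen macrophages, 7 in spleen conventional CD4 and 2 in spleen CD8 T cells by age, and 3 for the age by tissue term in conventional CD4 T cells. With the replicate block, age called 1 member in spleen dendritic cells, 1 in spleen regulatory T cells, 3 in tumor conventional CD4 T cells and 2 in spleen CD8 T cells. The block could not give the level of myeloid against T cell sorts. The cause was not tested in any of these.

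Leaving out 1 library at a time gave 0 to 2 members for age in spleen dendritic cells, 2 being without 3-month replicate 4. In conventional CD4 T cells it gave 11 to 17 between tissues, 2 to 5 for age in spleen and 0 to 4 for the age by tissue term. Without the 2 ribosomal-rich spleen libraries, a choice made after seeing the data, 10 were called between tissues and 2 by age in spleen. The difference between regulatory and CD8 T cells called 8 to 14 members without each replicate number. As a hint from the data, every library correlated best with its own number between ages in tumor CD8 T cells (0.0939 to 0.356), spleen regulatory T cells (0.0545 to 0.267) and spleen dendritic cells (0.0648 to 0.253).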
